A study of Mus musculus with 2 samples.

Results

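The genes described here are 10 members of 6 imprinted loci in which a small gene lies inside another: Mcts2 in H13, Nnat in Blcap, Zrsr1 in Commd1, a variant of Inpp5f that starts inside Inpp5f itself, Peg13 in Trappc9, and Nap1l5, whose host Herc3 is no member. They were chosen by name and placed by their RefSeq positions in the mouse build mm10. CpGs inside the genes or within 5 kb of them were kept where at least 10 reads covered them in both lines. This gave 385 CpGs of the 1030368 compared in the whole study. DNA methylation was measured by bisulfite sequencing of genomic DNA from 2 mouse haploid embryonic stem cell lines, A129-2 of 129Sv background and AOS-14 of C57BL/6 background. Both were sorted from AG-haploid embryos, taken here as androgenetic, so that their single chromosome set came from sperm, and no treatment is named for either. Each line gave 1 library, so line and strain cannot be told apart, no difference has a replicate check, and each test compares the reads of these libraries.

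At these loci the inner gene is known as a paternally expressed gene whose CpG-rich promoter is methylated in the oocyte and not in sperm. Mcts2, Zrsr1 and Nap1l5 are retrogenes, copies of a spliced RNA inserted into an intron. The hosts differ: in mouse, H13 RNA is known to end before or beyond Mcts2 depending on the allele, and Trappc9 and Blcap are known for allelic bias in brain. The protein ZFP57 is known to keep such marks after fertilisation by binding methylated TGCCGC.

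Promoter sequences in RefSeq (GRCm38.p6, the assembly of mm10) matched 8 of the 10 members, without Peg13 and Trappc9, and each covers 250 bases before to 50 bases after a start. Mcts2, Zrsr1 and the host Commd1 are shown because their compared CpGs carry the levels that follow, and capitals mark those CpGs. They lie at chr2:152686898-152687197 on the plus strand, chr11:22971755-22972054 on the plus strand and chr11:22982235-22982534 on the minus strand.
Mcts2: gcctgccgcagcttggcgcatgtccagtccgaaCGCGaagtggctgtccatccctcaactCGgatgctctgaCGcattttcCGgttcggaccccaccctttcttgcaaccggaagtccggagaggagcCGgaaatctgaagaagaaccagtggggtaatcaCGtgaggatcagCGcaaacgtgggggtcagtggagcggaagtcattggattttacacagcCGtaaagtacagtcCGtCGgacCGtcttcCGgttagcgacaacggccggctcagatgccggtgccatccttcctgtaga
Zrsr1: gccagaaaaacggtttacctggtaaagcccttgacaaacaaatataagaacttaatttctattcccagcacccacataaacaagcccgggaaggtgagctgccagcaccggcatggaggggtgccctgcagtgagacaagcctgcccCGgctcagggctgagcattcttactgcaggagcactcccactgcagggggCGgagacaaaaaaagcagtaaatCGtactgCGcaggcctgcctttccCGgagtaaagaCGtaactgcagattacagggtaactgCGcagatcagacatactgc
Commd1: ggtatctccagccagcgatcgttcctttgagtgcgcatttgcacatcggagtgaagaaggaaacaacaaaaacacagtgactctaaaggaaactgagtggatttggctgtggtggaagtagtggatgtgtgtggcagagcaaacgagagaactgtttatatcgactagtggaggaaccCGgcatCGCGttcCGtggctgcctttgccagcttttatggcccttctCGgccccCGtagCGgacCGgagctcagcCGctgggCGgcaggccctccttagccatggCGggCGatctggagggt
Nap1l5 (chr6:58907077-58907376, minus strand) and Nnat (chr2:157559828-157560127, plus strand) are shown because they hold the letters TGCCGC or their reverse complement GCGGCA near the start, in capitals.
Nap1l5: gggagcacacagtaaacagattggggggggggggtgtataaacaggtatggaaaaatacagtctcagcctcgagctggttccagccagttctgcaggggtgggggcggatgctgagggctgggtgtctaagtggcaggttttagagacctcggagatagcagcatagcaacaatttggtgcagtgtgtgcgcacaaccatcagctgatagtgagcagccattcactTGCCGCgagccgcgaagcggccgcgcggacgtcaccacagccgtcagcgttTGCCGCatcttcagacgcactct
Nnat: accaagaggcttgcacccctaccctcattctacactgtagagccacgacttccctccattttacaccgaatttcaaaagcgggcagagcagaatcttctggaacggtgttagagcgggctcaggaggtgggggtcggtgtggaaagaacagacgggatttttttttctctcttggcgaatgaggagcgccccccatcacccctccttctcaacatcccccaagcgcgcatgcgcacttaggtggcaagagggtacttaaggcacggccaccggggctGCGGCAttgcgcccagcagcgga
TGCCGC was searched on both strands. It occurred 2 times in Nap1l5, at 24 bases before and 27 after the start, and 1 time each in Nnat, Mcts2 and Commd1. None was found in these windows of Zrsr1, H13, Blcap and Inpp5f. Among all 32851 RefSeq promoters of this length, 11.6% held the motif at least once and 1.53% held it 2 times or more. The only match at a compared CpG was that in Commd1, 10 bases after the start, where 0 of 11 reads were methylated in A129-2 and 0 of 34 in AOS-14.

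The loci were covered unevenly. Of the CpGs listed in either table, 154 of 407 were compared at Peg13 and Trappc9, 69 of 133 at Mcts2 and H13, 65 of 110 at Zrsr1 and Commd1, 48 of 105 at Nnat and Blcap, 33 of 125 at Inpp5f and 16 of 19 at Nap1l5. The A129-2 library held 153035567 read calls at CpGs and the AOS-14 library 178315194. Median depth at the members' CpGs was 63 reads for A129-2, with a range of 10 to 500, and 85 reads for AOS-14, with a range of 10 to 515. Over them the mean level, methylated reads over all reads, was 8.98% in A129-2 and 12.6% in AOS-14, beside 9.48% and 14.998% over all compared CpGs. Per CpG, Fisher's exact test, adjusted by Benjamini-Hochberg over the whole table, called 27 of the 385 at an adjusted p under 0.05, 26 lower and 1 higher in A129-2. Over all CpGs 13% were called in either direction, 12.9% lower and 0.154% higher, so the members' share was below that of the table. A single member CpG, in the Trappc9 body, also passed a difference of 25 points, against 4.11% of all CpGs.

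The sequence around a CpG moved with its level at every locus. CpGs inside CCGG, the site of the enzyme MspI with which reduced representation libraries are made, averaged 17.8% in A129-2 and 24.0% in AOS-14 over 143 member CpGs. The other 242 member CpGs averaged 3.75% and 5.81%. The same split stood over all compared CpGs, at 18.9% and 27.9% inside CCGG and 4.74% and 8.49% outside. The part of the library preparation in this split was not tested, so for some regions levels are also given by kind. The plot of CpG levels by locus shows this split together with the 3 kinds of region.

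**Figure D1:**
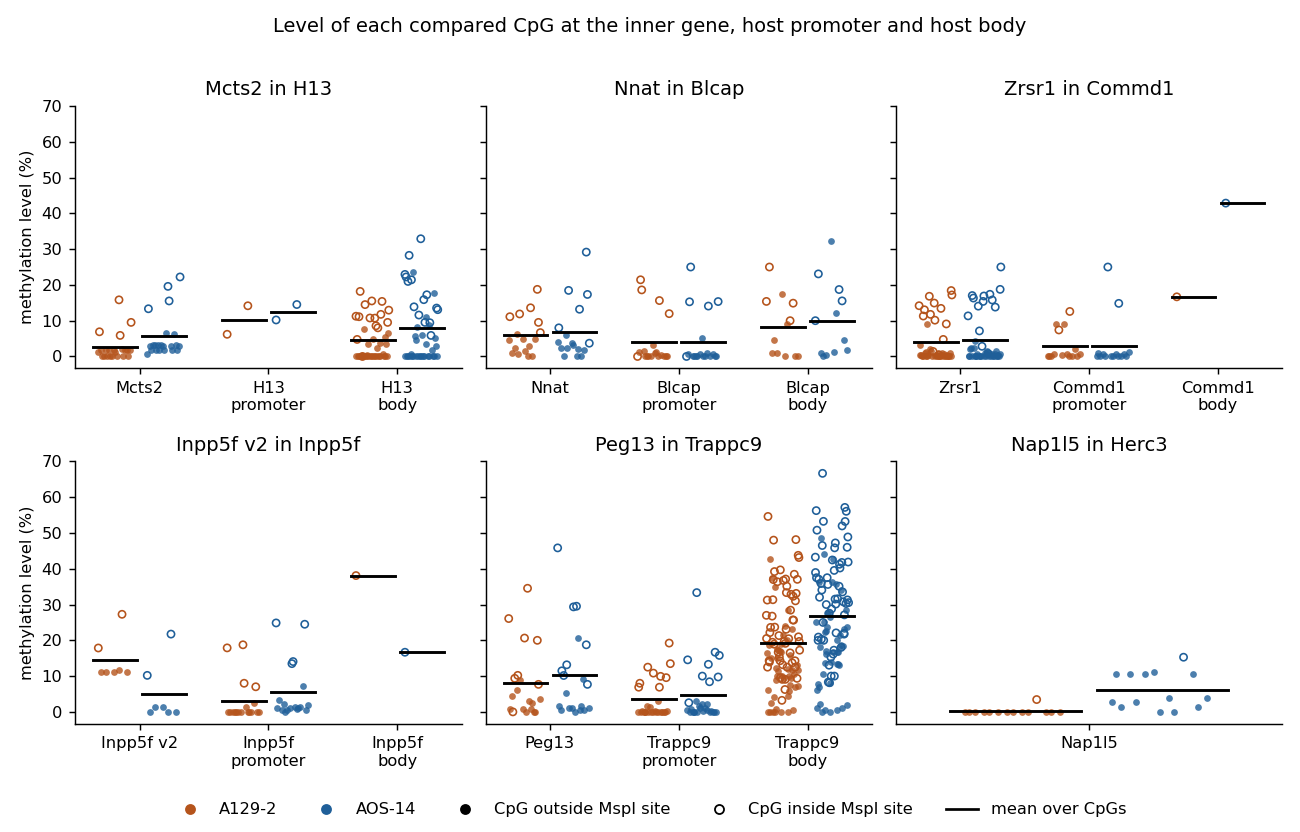
Methylation level in percent of each compared CpG at the inner gene, host promoter and host body of the 6 loci, A129-2 in orange and AOS-14 in blue. Open points lie inside the MspI site CCGG, filled points outside it, and black bars are means over CpGs; inner genes and host promoters lie low in both lines, while the Trappc9 body averages 19.3% in A129-2 and 26.8% in AOS-14.

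The inner genes, taken with 1 kb on either side, were low in both lines. Their 126 CpGs had a mean of 4.78% (A129-2) and 6.19% (AOS-14), and no CpG reached 50%. Outside CCGG the mean of 91 CpGs was 1.74% and 2.35%. For each region the reads of the libraries were compared by an exact test that keeps each CpG apart, adjusted over all genes with at least 5 compared CpGs. It called 4 of the 6 inner genes, 3 lower and 1 higher in A129-2, while of all 23070 genes with their flanks 79.1% were called, with 78.5% called lower and 0.624% higher. The members' share is therefore not above the background. The median difference of the 6 was -1.66 points and that of all genes -2.87 points.

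Mcts2, a copy of the X-linked Mcts1, which acts in translation initiation, had 22 compared CpGs within 305 bp. Its mean was 2.54% in A129-2, with CpGs from 0 to 15.8%, and 5.59% in AOS-14, with CpGs from 0.562% to 22.2%. A129-2 was the lower line at 21 of the 22 CpGs, though reads of neighbouring CpGs can overlap, and no single CpG was called. From chr2:152686873 to chr2:152686893 each compared CpG held 1 methylated read in either line. A129-2 was lower there only by its greater depth, 51 to 54 reads against 31 to 33. At the deepest CpG A129-2 was the higher line, with 3 of 244 reads methylated against 1 of 178. The difference of -3.05 points was called by the stratified exact test (adjusted p = 0.00157). On the forward strand alone it was 0.499 points (adjusted p = 0.739, stratified exact test), with A129-2 the higher line. The CpGs in the printed sequence lay at 0 to 1.92% in A129-2 and 1.77% to 6.45% in AOS-14 outside CCGG. The highest of them in AOS-14 sat at the start itself, inside CCGG, with 12 of 54 reads methylated, against 4 of 42 in A129-2.

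Nnat, which encodes neuronatin, a small membrane protein of neurons and endocrine cells, had 17 compared CpGs. Mean levels were 5.93% for A129-2 and 6.80% for AOS-14, and A129-2 was lower at 6 CpGs, higher at 9 and tied at 2. The stratified exact test did not call the difference of -0.86 points (adjusted p = 0.333). Outside CCGG the 11 CpGs averaged 2.67% and 2.34%. These CpGs lay before and after the printed window, none of whose CpGs had enough reads in both libraries.

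Zrsr1, a copy of the X-linked Zrsr2 for a protein that takes part in pre-mRNA splicing, was the inner gene with most compared CpGs, 46 over 2351 bp. Mean levels were 3.93% for A129-2 and 4.63% for AOS-14, which differed by -0.70 points (stratified exact test, adjusted p = 0.0241). Outside CCGG the 32 CpGs averaged 0.750% in A129-2 and 0.642% in AOS-14, so A129-2 was the higher line there, by 0.108 points that did not pass the test (adjusted p = 0.273, stratified exact). In reads, 25 of 4615 were methylated in A129-2 and 28 of 3530 in AOS-14. Of the 32 CpGs, 16 in A129-2 and 18 in AOS-14 had no methylated read. A second start that RefSeq lists for Commd1 lies within Zrsr1 on the minus strand, and its 12 compared CpGs averaged 2.58% in A129-2 and 2.68% in AOS-14.

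Nap1l5, a nucleosome assembly protein-like retrogene, had the lowest inner gene level in A129-2 and differed most between the lines in that direction. In A129-2 its 14 compared CpGs held 1 methylated read of 317, a mean level of 0.246%, against 34 of 699 and a mean of 6.08% in AOS-14. The difference of -5.84 points was called (stratified exact test, adjusted p = 3.82e-05). Outside CCGG, A129-2 had 0 methylated of 288 reads, with an exact 95% upper limit of 1.27% if each is counted as separate. In AOS-14, 23 of 627 reads were methylated. The 14 CpGs span 211 bp, so their reads are few molecules counted at several CpGs. The deepest CpG outside CCGG had 32 reads in A129-2, where a count of 0 allows up to 9.38%. The limit in molecules therefore lies above 1.27%. With at least 30 reads per CpG, 6 CpGs stayed and the difference was -1.37 points, no longer called (stratified exact test, adjusted p = 0.213).

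Peg13, a long noncoding RNA gene, had 20 compared CpGs, which averaged 7.98% in A129-2 and 10.4% in AOS-14. The stratified exact test did not call the difference of -2.46 points (adjusted p = 0.948). Weighted by reads the difference was 0.00998 points, with 80 of 1335 reads methylated in A129-2 and 137 of 2290 in AOS-14, and over the gene without its flanks it was 0.557 points. The 8 CpGs inside CCGG averaged 16.1% in A129-2 and 20.7% in AOS-14, and the other 12 averaged 2.58% and 3.57%. The 16 CpGs near the end taken as its start averaged 6.52% and 7.39%, and the 4 CpGs at its other end averaged 13.8% and 22.6%. One CpG near the start, at chr15:72809754, was the sole member CpG called higher in A129-2. It held 10 methylated reads of 114 in A129-2 and 2 of 193 in AOS-14 (Fisher's exact test, adjusted p = 0.0123).

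The variant 2 region of Inpp5f was the sole inner region with a higher level in A129-2. Its 7 compared CpGs averaged 14.5% in that line and 4.97% in AOS-14, and lie from chr7:128688218 to chr7:128688346. All 7 CpGs were higher in A129-2, and none was called singly. The region as a whole was called higher in A129-2 by the stratified exact test (adjusted p = 2.72e-04), as were 0.624% of all genes. The values behind it rest on few reads. The 5 CpGs outside CCGG span 68 bp and each had 2 methylated reads of 17 or 18 in A129-2, against 0 or 1 of 66 to 70 in AOS-14. In A129-2 the methylated reads there were all on the plus strand, where 2 of 7 reads were methylated at each of these CpGs, while the minus strand held 0 of 10 or 11. With only the deepest CpG of the region the stratified exact test gave an adjusted p of 0.241, and on the minus strand alone the difference was 0.198 points with an adjusted p of 1.0.

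The next 5 CpGs on the lower side of that region had 76 to 261 reads in A129-2 but 4 to 6 in AOS-14, so they were not compared. There, 17 of 724 reads were methylated in A129-2, or 2.35%, and 15 of the 17 sat at a single CpG inside CCGG. Outside CCGG the count was 2 of 528 reads, or 0.379%. Over all 12 CpGs of the region with at least 10 reads in A129-2, the mean level was 9.26% and the level weighted by reads 4.11%.

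**Figure D2:**
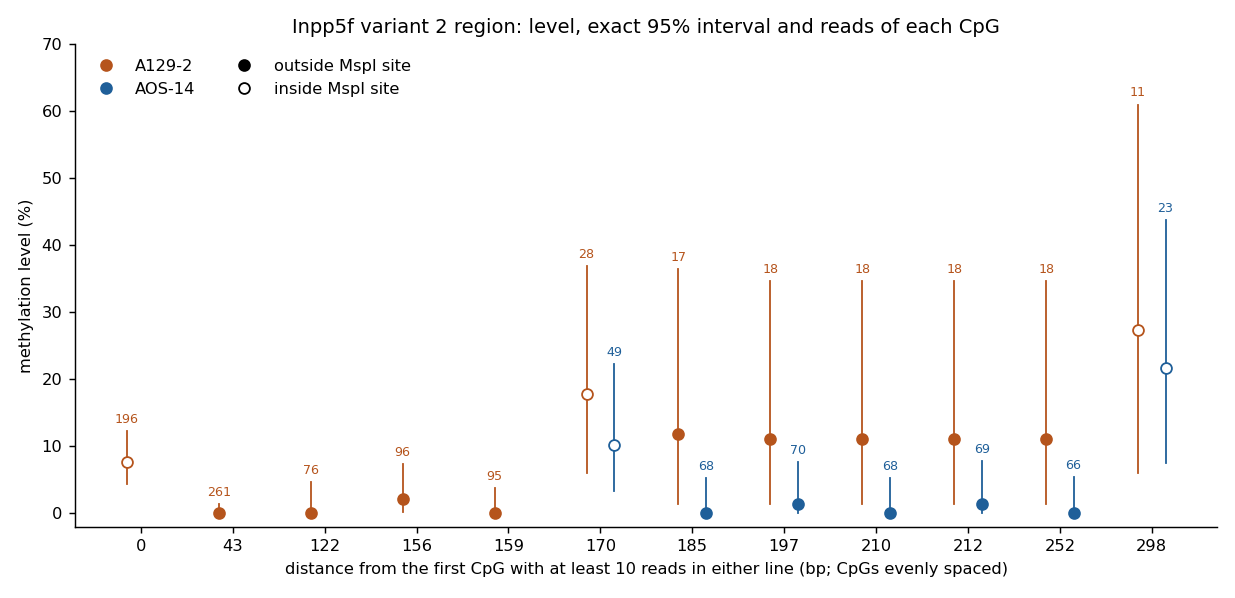
Level in percent of each CpG of the Inpp5f variant 2 region with at least 10 reads, with its exact 95% binomial interval (counting error only) and its number of reads above, A129-2 in orange left of AOS-14 in blue; open points lie inside the MspI site. The intervals of the lines overlap at all 7 CpGs covered in both, and the 5 CpGs covered in A129-2 alone lie between 0 and 7.65%.

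Among promoters, from 1 kb before to 0.5 kb after a start, the 5 inner ones had a median of 3.42% for A129-2 and 6.08% for AOS-14. For all 15196 tested promoters it was 2.86% and 3.57%. The Mcts2 promoter lay at or above 38.5% of them in A129-2 and 79.1% in AOS-14, and the Nap1l5 promoter at or above 0.322% and 81.8%. For both, the compared CpGs are the same ones as given for the gene, so gene and promoter are 1 result. Those of Nap1l5 lie inside the gene, and no CpG of its printed window was listed in either line. The Nnat promoter, at 5.90% in A129-2 and 8.15% in AOS-14, lay at or above 85.7% and 87.2%. The Zrsr1 promoter lay at or above 64.5% in A129-2 and 70.2% in AOS-14, and the Peg13 promoter at or above 67.6% and 87.4%. In AOS-14 all 5 were thus above the middle of the promoter distribution, at levels of a few percent. In A129-2 those of Nnat, Zrsr1 and Peg13 were, and those of Mcts2 and Nap1l5 were not. These ranks join CpGs inside and outside CCGG and were not taken for each kind apart. The Peg13 promoter held only 5 compared CpGs, of which those at chr15:72809880, chr15:72810540 and chr15:72810675 lay inside CCGG. At its others A129-2 held 0 of 38 and 0 of 26 reads methylated. AOS-14 held 0 of 84 and 1 of 11 there. The stratified exact test called 4 of the 9 tested inner and host promoters, against 33.1% of all promoters (32.5% called lower): those of Mcts2 (adjusted p = 0.0059), Zrsr1 (adjusted p = 0.0337, or 0.107 with reads summed over CpGs), Nap1l5 (adjusted p = 2.55e-04) and the host Inpp5f, all lower in A129-2. The Nap1l5 promoter was no longer called at 20 reads per CpG, where it differed by -2.87 points (stratified exact test, adjusted p = 0.0727), nor on the reverse strand alone, where it differed by -2.49 points (stratified exact test, adjusted p = 0.278). The Mcts2 promoter, which holds the same CpGs as the gene, had the change of sign on the forward strand given above.

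The host promoters were also low in both lines. Blcap, named for its reduced RNA in bladder cancer, had 19 CpGs with means of 4.01% in A129-2 and 4.09% in AOS-14 (stratified exact test, adjusted p = 0.631). Commd1, a regulator of copper handling and NF-kappaB, had 15 CpGs with 2.84% and 2.93% (stratified exact test, adjusted p = 0.652). The lines differed by -0.08 points at the Blcap promoter and -0.09 points at that of Commd1, beside a median of -0.75 points over all promoters. The Commd1 value joined -9.93 points at 2 CpGs inside CCGG and 1.43 points at the other 13. With at least 20 reads per CpG it was -2.43 points over 8 CpGs, also not called (stratified exact test, adjusted p = 0.438). Trappc9, a subunit of the TRAPP complex of vesicle transport, had 29 CpGs with 3.59% and 4.77% (stratified exact test, adjusted p = 0.0669). Outside CCGG these 3 promoters were close to unmethylated. Reads methylated there were 11 of 1877 in A129-2 and 17 of 2119 in AOS-14 at Blcap, 10 of 1144 and 7 of 1288 at Commd1, and 13 of 2633 and 22 of 2668 at Trappc9. Of the 20 Trappc9 CpGs outside CCGG, 14 had no methylated read in A129-2 and 9 in AOS-14. H13, which encodes signal peptide peptidase, had only 2 compared promoter CpGs, both inside CCGG, at 10.2% and 12.4%, too few for the test.

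Inpp5f, a phosphoinositide phosphatase, was the one host whose promoter was called. Its 18 CpGs within 165 bp averaged 3.08% in A129-2 and 5.56% in AOS-14, lower in A129-2 at 16 of them (stratified exact test, adjusted p = 3.45e-05). On the forward strand alone the difference was not called (stratified exact test, adjusted p = 0.347). Outside CCGG, 6 of 2209 reads were methylated in A129-2 and 48 of 2894 in AOS-14, and 12 of these 14 CpGs had no methylated read in A129-2, against 1 in AOS-14. Before this promoter window lay 7 CpGs, between chr7:128609539 and chr7:128610271, whose mean was above that of the promoter in both lines. They averaged 13.4% in A129-2 and 29.5% in AOS-14, lower in A129-2 at all 7, and 6 were called singly. Among all CpGs A129-2 was the lower line at 62.4%, and the share called lower was 12.9%. From chr7:128609539 to chr7:128609587 lay 5 of the 7, each with 170 to 180 reads in A129-2 and 153 to 156 in AOS-14. Their reads can be the same molecules, so the 6 calls need not be separate evidence. Outside CCGG, 3 of the 7 CpGs, within 23 bp, held 48 of 537 reads methylated in A129-2 and 123 of 465 in AOS-14.

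**Figure D3:**
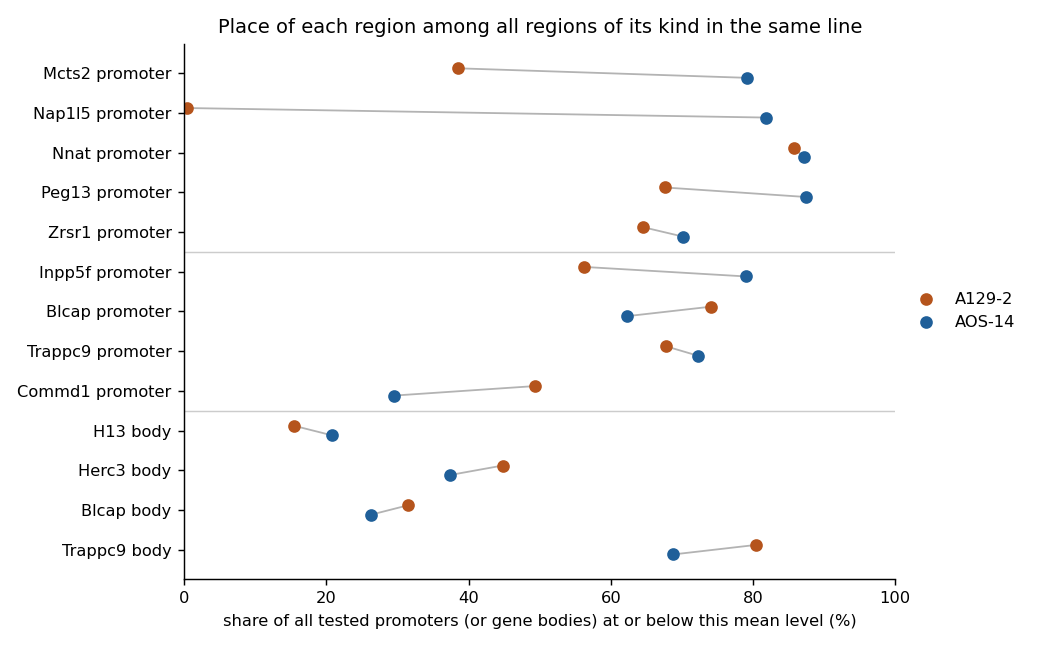
Share in percent of all tested promoters, or of all tested gene bodies, whose mean level is at or below that of each member region in the same line, A129-2 in orange and AOS-14 in blue joined by a grey line. The Nap1l5 promoter lies at 0.322% in A129-2 and 81.8% in AOS-14, while the Commd1 and Blcap promoters lie at a higher share in A129-2 than in AOS-14.

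Host bodies, without promoter and inner gene, split by locus. Over all 164 such CpGs the mean was 14.5% in A129-2 and 20.4% in AOS-14. The stratified exact test called 2 of the 3 tested member bodies, both lower in A129-2, against 83.3% of all 16068 gene bodies, 82.8% called lower. The median over all bodies was 12.5% for A129-2 and 19.9% for AOS-14, with a median difference of -6.53 points.

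The Trappc9 body was the most methylated member region with a test. Its 105 CpGs, spread over 443511 bp, averaged 19.3% in A129-2, from 0 to 54.6%, and 26.8% in AOS-14, from 0 to 66.7%. It lay at or above 80.4% of all bodies in A129-2 and 68.7% in AOS-14. Of its CpGs, 58 lay inside CCGG, where levels run higher, while 33.4% of all compared CpGs did. These 58 averaged 24.8% in A129-2 and 33.5% in AOS-14, and the other 47 averaged 12.5% and 18.4%. The rank was not taken for each kind apart. A129-2 was lower at 81 CpGs, higher at 22 and tied at 2, and 16 were called lower. Over all CpGs, in gene bodies or not, 62.4% were lower in A129-2 and 12.9% were called lower. Among all tested gene bodies 95.6% were lower in A129-2, and 44.4% were lower by at least as much as that of Trappc9. The difference of -7.47 points was called (stratified exact test, adjusted p = 1.12e-52). With only its deepest CpG it was 0.204 points (Fisher's exact test, adjusted p = 0.964). The CpG past 25 points, at chr15:72757849, had 0 of 18 reads methylated in A129-2 and 15 of 34 in AOS-14 (Fisher's exact test, adjusted p = 0.00859). The other called CpGs differed by less. At chr15:72913353, within a stretch of 7 compared CpGs, 40 of 307 reads were methylated in A129-2 and 104 of 364 in AOS-14 (Fisher's exact test, adjusted p = 2.22e-05). At chr15:72932021 the counts were 12 of 173 and 65 of 282 (Fisher's exact test, adjusted p = 1.06e-04). The highest CpG in A129-2, at chr15:72901154, was close in both, with 65 of 119 reads against 65 of 128 in AOS-14.

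Within Trappc9 the level was low next to the promoter and alike on either side of Peg13 in A129-2. The 7 CpGs within 1 kb of the promoter window averaged 4.28% in A129-2 and 3.09% in AOS-14, and the 98 beyond averaged 20.4% and 28.5%. Between its start and Peg13, 76 CpGs averaged 19.1% and 25.6%. Past Peg13, 29 CpGs averaged 19.8% and 29.9%. The 16 CpGs near the end taken as the Peg13 start, within 991 bp, were lower than the body on average in both lines. The 4 at its other end were nearer the body's mean, and between them Peg13 had no compared CpG, as the profile along Trappc9 shows.

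**Figure D4:**
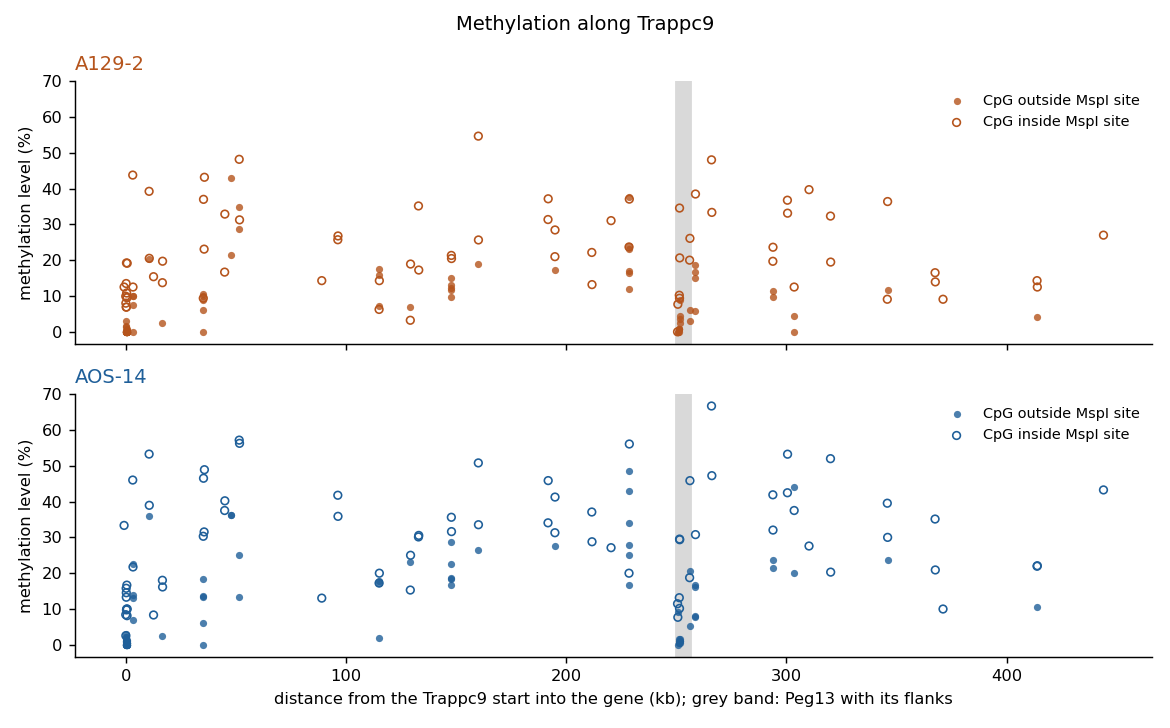
Methylation level in percent of the compared CpGs of Trappc9 and Peg13 against distance in kb from the Trappc9 start, A129-2 above AOS-14; open points lie inside the MspI site and the grey band is Peg13 with its flanks. Levels are near 0 at many CpGs of the Trappc9 start and of the end taken as the Peg13 start. The 98 Trappc9 body CpGs more than 1 kb away from the promoter window average 20.4% in A129-2 and 28.5% in AOS-14.

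The H13 body was low for a gene body, at or above 15.4% of all bodies in A129-2 and 20.8% in AOS-14. Its 45 CpGs, all on the far side of Mcts2 from the H13 start, averaged 4.48% and 7.97% (stratified exact test, adjusted p = 7.99e-15). The 26 CpGs in the last 2 kb averaged 2.25% and 3.06%, and the 19 before them 7.52% and 14.7%, lower in A129-2 at 18. All 4 CpGs called singly lay in the stretch before the last 2 kb. The largest of these differences was at chr2:152694010, with 16 of 209 reads methylated in A129-2 and 55 of 232 in AOS-14. These means join the kinds of CpG, with 10 of the 19 inside CCGG but 5 of the 26 in the last 2 kb. Outside CCGG the means before the last 2 kb were 3.18% in A129-2 and 8.84% in AOS-14. In the last 2 kb they were 0.469% and 0.965%. Inside CCGG they were 11.4% and 19.9% before it, and 9.73% and 11.9% in it. So the end of H13 was near its inner gene in level, and the CpGs between were higher in both lines, by less within a kind than the joint means show in A129-2.

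The Blcap body had 12 CpGs with means of 8.17% in A129-2 and 10.04% in AOS-14 (stratified exact test, adjusted p = 0.103). The bodies of Commd1 and Inpp5f had 1 compared CpG each, both inside CCGG. In Commd1 it held 8 of 48 reads methylated in A129-2 and 12 of 28 in AOS-14. In Inpp5f it held 8 of 21 and 2 of 12, so these bodies remain nearly unmeasured. Herc3, the host of Nap1l5, had 42 compared CpGs in its body, with a mean of 11.3% for A129-2 and 14.8% for AOS-14 (stratified exact test, adjusted p = 4.6e-12), and no compared CpG at its promoter. The 2 compared CpGs of Herc3 within 5 kb of Nap1l5 lay at 18.3% and 24.3% on average, above the CpGs of Nap1l5 in both lines. At the Commd1 locus 3 CpGs beyond the gene averaged 15.1% and 22.0%, again above the inner gene and the promoter.

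In windows of 1 kb with at least 5 compared CpGs, the stratified exact test called 10 of the 24 windows of the members, against 57.4% of all 51142 windows. It called 9 lower in A129-2, against 56.4% of all windows, and 1 higher, that of the Inpp5f variant, against 0.987%. None passed 25 points, against 5.05% of all windows. The largest difference was in the window before the Inpp5f promoter, where 5 CpGs averaged 9.69% for A129-2 and 25.7% for AOS-14 (stratified exact test, adjusted p = 4.11e-18). In Trappc9 the windows with the largest differences had 23.8% and 33.9%, and 14.8% and 24.6%, both in the stretch between its start and Peg13.

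Other promoters of lists related to these genes were read the same way. Of 10 other genes with a maternally methylated promoter, 7 had enough CpGs, with a median of 3.21% for A129-2 and 4.89% for AOS-14, and 2 were called lower in A129-2. Of all promoters 32.5% were called lower and 33.1% in either direction, and the counts of these short lists are read against that. The 2 were Zdbf2, at 3.21% and 7.71% (stratified exact test, adjusted p = 1.01e-04), and Mest, at 5.82% and 8.15% (stratified exact test, adjusted p = 0.0177). Among the X-linked sources and relatives of the retrogenes, 3 of 4 were tested and none was called. The Mcts1 promoter had 4.70% and 7.13% (adjusted p = 0.281, stratified exact test) and the Zrsr2 promoter 2.72% and 3.31% (adjusted p = 0.616, stratified exact test). So the promoters of Mcts1 and Zrsr2 and those of their intronic copies all lay at a few percent in both lines.

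Of 6 imprint maintenance genes, 3 were tested. The promoter of Zfp57, which encodes the binding protein named above, was called higher in A129-2, with means of 6.52% in that line and 0.889% in AOS-14 (stratified exact test, adjusted p = 0.0383). It rested on 5 methylated reads of 75 in A129-2 and 2 of 231 in AOS-14, summed over 6 CpGs between chr17:37002807 and chr17:37002896. The same molecules can be counted there at several CpGs. Of all promoters 33.1% were called in either direction and 32.5% lower, so few were called higher. Uhrf1, which guides maintenance methylation at replication, had 1.90% and 4.12% and was called lower in A129-2 (stratified exact test, adjusted p = 0.00675). Of 5 pluripotency genes, which mark the labelled cell type, 2 were tested, Sox2 at 0.858% and 1.34% and Klf4 at 1.95% and 3.22%. Klf4 was called lower in A129-2 (stratified exact test, adjusted p = 0.00162).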

How the data were processed

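Per the labels' protocols, about 100 Mb of mouse sequence was captured, treated with bisulfite and sequenced from both ends over 50 bp. The title of the series speaks of reduced representation instead, and this conflict was not settled. BSMAP (no version) and mm10 are named per the submitters' processing notes. For trimming and duplicate removal, no source used here gives a setting. The authors deposited, per CpG, the methylation level as a fraction and the read counts behind it, both strands added. Levels were recomputed from these deposited counts as percentages, averaged over CpGs.

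Genes were placed from RefSeq, with starts from its promoter table. Trappc9 and Peg13, without one there, got the end richer in CpGs. Differences are A129-2 minus AOS-14. CpGs were compared by Fisher's exact test, two-sided, and regions of at least 5 CpGs by a stratified exact test, in which methylated reads follow a sum of hypergeometric counts over CpGs (above 6000 methylated reads, its chi-square form), with Benjamini-Hochberg adjustment over all units of a kind. The design had named Fisher's test on summed reads. On simulated reads with equal levels in both libraries that test made more false calls than the stratified one, so it was replaced after this was seen and is kept as an alternative. Both tests treat reads at neighbouring CpGs as separate, though they can be the same molecules, which makes region p-values too small. Intervals are exact 95% binomial ones. With 1 library per line, intervals, limits and p-values cover counting error only.

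The members, lists and regions were chosen with earlier results of these data known. The text names all members, Herc3, the called CpGs and windows in part, and the lists. Tools were scipy 1.17.1, numba 0.67.0, numpy 2.4.6, pandas 2.3.3 and, for figures, matplotlib 3.10.9, all under Python 3.11.15, and each test was tried on simulated data.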

Additional observations from a re-analysis of the deposited data

Results flagged for a closer look

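Reads at CpGs outside the comparison, for having under 10 reads in a line, held more than the 3 methylated reads that a count of 0 allows in 11 regions. In the H13 body 33 of 362 reads were methylated in A129-2 (9.12%) and 15 of 142 in AOS-14 (10.6%), and in the Trappc9 body 42 of 241 (17.4%) and 103 of 343 (30.03%). In the Inpp5f body 4 of 34 reads were methylated in A129-2 (11.8%) and 22 of 65 in AOS-14 (33.8%). In the Inpp5f variant 2 region 17 of 732 reads were methylated in A129-2 (2.32%), below the 14.5% of its compared CpGs. The others were in AOS-14. At the Inpp5f promoter 11 of 592 reads were methylated (1.86%), at Nnat 4 of 279 (1.43%) and at Nap1l5 4 of 31 (12.9%). In the 5 kb flanks the counts were 7 of 48 at Mcts2 and H13 (14.6%), 5 of 33 at Nnat and Blcap (15.2%), 6 of 23 at Peg13 and Trappc9 (26.1%) and 16 of 25 at Nap1l5 (64.0%). Of 3 CpGs listed in the Nap1l5 flanks 2 were compared, so the last value is that of the remaining CpG alone. A129-2 held 3 of 9 reads methylated there (33.3%). No control sample was analysed here, and no cause was tested.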

How the results depend on the processing

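No paired analysis was possible because each line has 1 library. Of 219 alternatives for single regions, 191 kept the direction and the side of the threshold, or changed sign without a call (9 of them), 20 lost the call with the direction kept, 1 gained it, and 7 turned direction and lost the call. Outside CCGG, Zrsr1 turned to 0.108 points, and on the forward strand to 0.0376. Mcts2 turned to 0.499 points on the forward strand, as gene and as promoter, and to 0.668 points with only the deepest CpG. The Trappc9 body turned to 0.204 points with only its deepest CpG. With reads summed over CpGs, 3 in place of 4 promoters were called, without Zrsr1 (Fisher's exact test, adjusted p = 0.107), and 11 in place of 10 windows. Of the inner genes, 4 of 6 at first, 2 of 5 tested were called at 30 reads per CpG, 0 of 3 inside CCGG, 0 of 4 on the forward strand, 1 of 6 on the reverse strand and 0 of 6 with the deepest CpG. Of these the Inpp5f variant was untested at 30 reads, and it and Nap1l5 on the forward strand. Inside CCGG both of them and Mcts2 were untested. So these calls were not put to the test there. Of the promoters, 4 of 9 at first, 0 of 3 were called inside CCGG, where Mcts2, Nap1l5 and Inpp5f were untested, 1 of 7 on the forward strand, without Nap1l5, 2 of 8 on the reverse strand and 0 of 9 with the deepest CpG, where 1 in place of 2 of 3 bodies was called. Windows called were 18 with 3 CpGs and 2 with 10. Past 25 points, 1 window was called at 5 reads and 1 with 3 CpGs, and 0 CpGs at 20 reads. Past 15 points, 16 CpGs and 1 window were called. The median over inner genes, 4.93% in A129-2 and 5.84% in AOS-14, moved to 4.49% in A129-2 at 5 reads, 3.61% and 5.23% at 20 reads, 3.70% and 4.45% at 30, 3.81% and 4.85% weighted by reads, 1.78% and 2.62% outside CCGG, 11.9% and 14.98% inside, 2.52% and 3.16% on the forward strand, 4.27% in A129-2 on the reverse strand, 5.71% and 6.98% with 2 kb flanks, and 0.964% and 1.39% with the deepest CpG. The cause was not tested. The stratified test and the deepest CpG were chosen after seeing the data. Among inner genes the reads were fewest at the Inpp5f variant and Nap1l5, with 89 and 288 reads outside CCGG in A129-2, and the bodies of Commd1 and Inpp5f had 1 compared CpG each.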

Other observations

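Only 3 of the 57 CpGs inside CCGG at inner genes and host promoters were under 3% in both lines. One, at the Blcap promoter (chr2:157565935), had 0 of 139 reads methylated in A129-2 and 0 of 169 in AOS-14. The others were in Zrsr1, at chr11:22972127 with 4 of 286 and 4 of 141 reads, and at chr11:22972534 with 1 of 247 and 1 of 122. The remaining CpGs inside CCGG there had a median of 11.9% for A129-2 and 15.3% for AOS-14. These 3 were picked after their values were seen.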
